A study of Mus musculus with 20 samples.

Results

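Hearts of MuRF1 -/- mice that had eaten chow with 0.05% (w/w) fenofibrate for 3 weeks were compared with hearts of MuRF1 -/- mice on chow alone. The groups were taken from the sample titles, which gave 4 hearts after 3 weeks of fenofibrate and 3 chow hearts, 7 of the 20 hearts in the series. Both groups carry the MuRF1 deletion, so the comparison holds the diet response of hearts without MuRF1 and says nothing by itself about what MuRF1 does. The remaining hearts served for comparison: 3 from MuRF1 -/- mice after 8 weeks of the drug, and 4, 3 and 3 from MuRF1 +/+ mice after 3 weeks, after 8 weeks and on chow. The chow hearts are labelled as 8 weeks of chow, so the 3-week hearts had no chow group of matched duration, and time on the diet and the drug cannot be told apart. Each heart is labelled as a biological replicate, with no sex, litter or strain of the donor and no word on which part of the gene was deleted, and the series text gives an age of 3 to 8 weeks. Each heart's RNA carried Cy5 on its own 2-colour Agilent array, against Cy3-labelled RNA pooled from whole C57BL/6 pups of postnatal day 1. Levels below are therefore log2 ratios of heart to newborn pup. Differences between groups are not wholly free of the pup RNA, since background correction and normalization used both channels.

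Fenofibrate is a lipid-lowering drug whose active form, fenofibric acid, is a ligand of PPAR alpha. This nuclear receptor pairs with a retinoid X receptor on DNA and switches on genes for fatty acid uptake, oxidation and storage, with Pdk4, Acot1, Angptl4, Ucp3 and Cpt1a among its known targets in heart and liver. MuRF1, encoded by Trim63, is a ubiquitin ligase of striated muscle that marks sarcomere proteins for breakdown, and Trim55 and Trim54 encode its close relatives MuRF2 and MuRF3.

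After 3 weeks of fenofibrate the hearts had more of the nuclear RNAs Neat1 and Malat1, and more titin and MuRF2 mRNA, than chow hearts. They also had more atrial natriuretic peptide mRNA and, on average, more mRNA of interferon-stimulated genes. In 3-week replicate 4 the interferon-stimulated genes were near chow, with a median difference of 0.04 over 24 genes. The 3-week hearts had less mRNA of lipid droplet genes. Among single genes, Gys1 (glycogen synthase), Des (desmin), Jph2 (calcium handling), Adcy5 (an adenylyl cyclase), Nmrk2 and Cyp1a1 were lower too. The classic PPAR alpha targets were mostly not higher. Pdk4 differed by 0.06 ± 0.33 on the log2 scale (adjusted p = 0.919). Of 32 listed targets 1 rose and 5 fell, where 14.4% of all genes rose and 12.1% fell. Differences are given as log2 ± SE, 3 weeks minus chow, from a limma fit over all 20 arrays, and adjusted p-values are Benjamini-Hochberg values over all 14566 genes tested. A gene is said to rise or fall where its adjusted p was under 0.05.

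**Figure D1:**
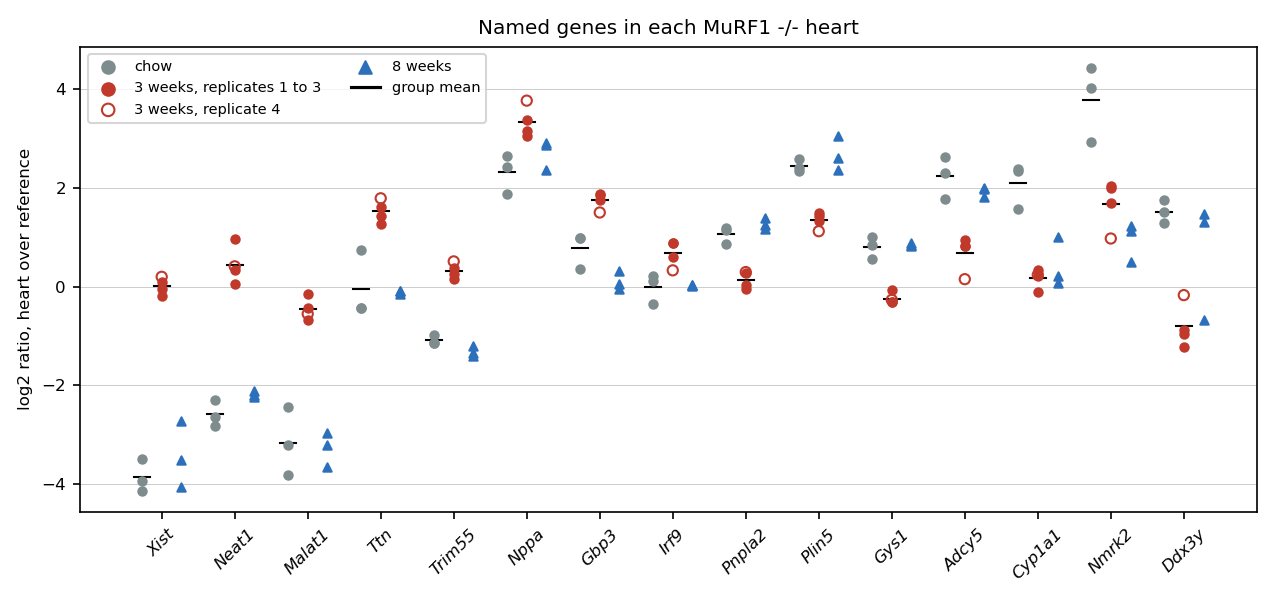
Log2 ratio of heart to newborn reference (vertical axis) of 15 genes in each MuRF1 -/- heart. Grey points are chow hearts, filled red points 3-week replicates 1 to 3, the open red point 3-week replicate 4, blue triangles 8-week hearts, and black bars the means of the chow and the 3-week group. Xist, Neat1, Malat1, Ttn and Trim55 lie higher in the 4 three-week hearts than in the 3 chow hearts, and Pnpla2, Plin5, Gys1, Adcy5, Cyp1a1, Nmrk2 and Ddx3y lie lower.

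The libraries differed in ways other than diet. The share of probes with heart signal well above background was 38.8% to 42.5% on the chow arrays and 47.1% to 51.9% on those of 3-week replicates 1 to 3, but 34.3% on that of replicate 4. Log ratios of replicates 1 to 3 correlated at 0.968 to 0.977 with one another, and those of replicate 4 at 0.896 to 0.918 with them. Replicates 1 to 3 shared a slide (a set of arrays scanned together) with chow replicates 1 to 3, whereas the slide of replicate 4 held no chow heart. Trim63 lay at -1.19, -0.94 and -1.16 in 3-week replicates 1 to 3, at -0.49 in replicate 4 and at -0.97, -0.96 and -1.11 on chow, and did not pass (log2 0.07). In MuRF1 +/+ hearts it lay at 2.14 to 2.81 at 3 weeks and at 2.38 to 2.59 on chow, above every MuRF1 -/- heart. Sex-linked transcripts moved with the diet. Xist, the RNA that coats the inactive X chromosome, was at -0.04, -0.20 and 0.08, with 0.20 in replicate 4, against -3.49, -3.92 and -4.13 on chow, where it was not well above background in any heart and was at least 14.5-fold lower. Such bounds are the smaller of the fold of the ratios and the fold in the heart channel, where the dim group is set at its own signal or at the dimmest probe well above background, whichever is higher on each array. The Y-linked Ddx3y and Eif2s3y were above background in 3 of 3 chow hearts and 1 of 4 three-week hearts each, and fell (log2 -2.32 and -2.22 at signals that were mostly below background at 3 weeks). Of 8 sex-linked genes tested, 5 rose and 3 fell. The labels give no sex, so sex and diet cannot be told apart in this comparison, and what part of any difference below goes with it was not tested.

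Of 14566 genes, 3857 passed the test (26.5%). The 2092 that rose were 14.4% of the genes tested and the 1765 that fell 12.1%, and the median difference of all genes was -0.008. Most differences were small, with a median size of 0.43 among the genes that passed, and 196 rose and 93 fell by at least 1, which is 2-fold. For 3454 genes (23.7%) the test was passed and no 3-week heart overlapped any chow heart. With the slide as a block 3435 passed. Without replicate 4 the count was 3955 (27.2%, 2075 higher and 1880 lower), of which 3266 were called with it as well. Without chow replicate 3 the count was 2348. It was 2369 when the background fit kept the 6 spots of chow replicate 2 whose local background exceeded their signal by over 50, a choice that altered the values of no other of the 20 arrays, and 2237 with the series matrix values. Genes that fell were shorter in the genome, with a median span of 14.9 kb against 33.1 kb for genes that rose and 22.5 kb for all tested genes with an annotated span. An annotated span was at hand for 1430 of the 2092 genes that rose and 1622 of the 1765 that fell. This stayed so without replicate 4 (15.4 and 30.7 kb). Falls made up 19.8% of tested genes on chromosome 7 and 19.6% on chromosome 19, but 5.70% on the X chromosome.

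By count, though not by share, interferon-stimulated genes were the listed group with most members that rose. Interferon signals through the factor ISGF3, which binds a response element that holds GAAA, any 2 bases and GAAA again (TTTC, any 2 bases and TTTC on the other strand). Of 24 listed genes tested, 11 rose and 1 fell (median 0.37), against 14.4% rises over all genes. The GAAA pattern was searched on both strands from 250 bases before to 50 after the start. It was in 11 of the 18 tested members that have a RefSeq promoter entry (61.1%). Of the 9 among them that rose, 6 held it (66.7%), a share near that of all 18. It was in 943 of 27025 promoters in all (3.49%). The list was made of known interferon-stimulated genes, so these shares say nothing about the diet. Below are the 150 bases before the start of 3 members that rose, 5′ to 3′ along the gene, with the motif in capitals, and of Cyp1a1, the gene of the aryl hydrocarbon receptor described further on, with GCGTG in capitals. They are RefSeq sequences of mouse build GRCm38.p6: Ifit1 at chr19:34640739-34640888, plus strand, Rsad2 at chr12:26456453-26456602, minus strand, Gbp3 at chr3:142559894-142560043, plus strand and Cyp1a1 at chr9:57697463-57697612, plus strand.
Ifit1: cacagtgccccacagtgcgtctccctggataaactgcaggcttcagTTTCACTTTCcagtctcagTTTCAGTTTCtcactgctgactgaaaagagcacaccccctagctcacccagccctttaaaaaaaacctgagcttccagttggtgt
Rsad2: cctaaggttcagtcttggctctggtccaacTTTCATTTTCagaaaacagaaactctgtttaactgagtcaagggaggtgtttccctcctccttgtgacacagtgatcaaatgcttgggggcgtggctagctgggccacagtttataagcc
Gbp3: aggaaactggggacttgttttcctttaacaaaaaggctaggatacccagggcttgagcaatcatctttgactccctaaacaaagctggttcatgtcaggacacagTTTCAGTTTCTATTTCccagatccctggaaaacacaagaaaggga
Cyp1a1: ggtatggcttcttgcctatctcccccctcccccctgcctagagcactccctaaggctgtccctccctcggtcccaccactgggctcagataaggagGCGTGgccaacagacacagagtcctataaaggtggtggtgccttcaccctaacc
In Gbp3 the capitals hold 2 overlapping matches. A match describes letters and was not tested as a binding site.

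Gbp3, a guanylate-binding protein gene of host defence, was at 1.85, 1.74 and 1.88 in 3-week replicates 1 to 3 and 1.498 in replicate 4, against 0.98, 0.98 and 0.36 on chow and 0.04, 0.31 and -0.06 after 8 weeks (log2 0.97 ± 0.17, adjusted p = 0.000434). All 4 three-week hearts were above the chow hearts. Irf9, a subunit of the interferon-activated factor ISGF3, was at 0.88, 0.60 and 0.88 and, in replicate 4, 0.33, against 0.12, 0.22 and -0.35 (log2 0.68 ± 0.13, adjusted p = 0.00132). Its partner Stat2 rose by 0.57. Rsad2, which encodes the antiviral enzyme viperin, rose by 0.89 (adjusted p = 0.00459), with 0.07, -0.09 and 0.79 and -0.03 against -0.39, -0.99 and -0.72, although its other measured probes moved by 0.08 to 0.17. The antiviral effector genes Oas2 (0.76), Ifit1 (0.64), Mx2 (0.54), Ifi44 (0.53), Bst2 (0.47) and Oasl2 (0.45) and the ubiquitin-like modifier gene Isg15 (0.29) rose too, and Ifi35 fell by 0.26. Replicate 4 was lower than its group here. Over the 24 genes its median difference from chow was 0.04, against 0.50 for the fit without it, in which 15 rose and 0 fell. In replicate 4 Ifi44 was 0.13 above chow, and Igtp, a GTPase gene induced by interferon gamma, was 1.17 below it. In MuRF1 +/+ hearts 3 of the 24 rose at 3 weeks against 12.3% of all genes (median 0.20), no member's response differed between genotypes past the threshold, and none rose after 8 weeks in MuRF1 -/- (1.08% of all genes). Set against the 8-week hearts directly, 18 of 24 were higher at 3 weeks, against 18.0% of all genes.

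None of 15 listed antigen presentation genes rose and 4 fell (median -0.07), where 14.4% of all genes rose and 12.1% fell. The class II genes H2-Ab1 (-0.68), H2-Eb1 (-0.55) and H2-Aa (-0.54) and the peptide transporter gene Tap2 (-0.59) fell. In replicate 4 the 3 class II genes were 0.95 to 1.21 below chow. Leaving out 1 heart ended the calls of H2-Ab1 (without chow replicate 1 or 2 or 3-week replicate 1 or 4, adjusted p 0.0611 to 0.11), H2-Eb1 (without chow replicate 1, 2 or 3 or 3-week replicate 1 or 4, adjusted p 0.0691 to 0.111) and H2-Aa (without chow replicate 1, 2 or 3 or 3-week replicate 1 or 4, adjusted p 0.0547 to 0.102). B2m, the light chain of class I, was 0.61 higher and missed the threshold (adjusted p = 0.0577), but passed without replicate 4 (0.76, adjusted p = 0.0224). Of 16 leukocyte markers tested, 1 rose and 3 fell (median -0.06), beside the same shares of all genes. C1qa, a complement gene of tissue macrophages, was at 0.09, 0.11 and 0.40 and -0.14 against 0.89, 0.82 and 0.63 on chow, with no overlap (log2 -0.67 ± 0.13, adjusted p = 0.00108). C1qb fell by 0.40 and Cd68 by 0.31, but leaving out 1 heart ended the calls of C1qb (without chow replicate 1 or 2 or 3-week replicate 1 or 4, adjusted p 0.0597 to 0.115) and Cd68 (without chow replicate 1, adjusted p 0.0921). In whole hearts, fewer cells of a type and less RNA per cell cannot be told apart.

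Nuclear long noncoding RNAs held some of the largest rises. Neat1, the scaffold of nuclear paraspeckles, was at 0.33, 0.05 and 0.95 in replicates 1 to 3 and 0.41 in replicate 4, against -2.82, -2.29 and -2.63 on chow and -2.11, -2.20 and -2.23 after 8 weeks (log2 3.01 ± 0.53, adjusted p = 0.000526). Malat1, an abundant RNA of nuclear speckles, was at -0.67, -0.44 and -0.15 and -0.55 against -3.21, -2.44 and -3.81 (log2 2.70 ± 0.39, adjusted p = 7.93e-05), and its 3 other measured probes rose by 1.73 to 2.53. In both, the 3-week hearts stood clear of the chow and 8-week hearts, and at the tested probes replicate 4 lay within the range of its group. At the 3 other probes of Malat1 replicate 4 was the highest heart. Gas5 (0.95), H19 (0.85) and Airn (0.40) rose as well, so that 5 of 9 listed RNAs rose and none fell (median 0.40). Over all genes 14.4% rose and 12.1% fell. H19, an imprinted RNA of fetal tissue, missed the threshold without replicate 4 (adjusted p = 0.064). Airn was above background in 3 of 4 three-week hearts and 1 of 3 chow hearts. The 4 imprinted or host RNAs that did not pass, Meg3, Mirg, Rian and Snhg11, differed by -0.11 to 0.36. In MuRF1 +/+ hearts Neat1 and Malat1 rose by 2.44 and 2.39 at 3 weeks. After 8 weeks in MuRF1 -/- none of the 9 passed, where 2.23% of all genes did.

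The PPAR alpha targets did not rise as a group at 3 weeks. Of 32 tested, 1 rose and 5 fell, against 14.4% and 12.1% of all genes, with a median of -0.13. Pdk4, the kinase that shuts off pyruvate dehydrogenase when fat is burned, was at 0.18, -0.39 and -0.88 in replicates 1 to 3 and -0.58 in replicate 4, against -0.31, -0.81 and -0.31 on chow. These hearts overlapped, while the 8-week hearts, at 1.38, 2.65 and 1.74, were above all of them (8 weeks minus chow 2.40, adjusted p = 0.0011). Acot1, a cytosolic thioesterase that frees fatty acids from coenzyme A, was at -2.06, -1.68 and -1.80 and -1.45 against -1.15, -1.41 and -0.73 on chow and 0.09, 1.24 and 0.62 at 8 weeks. The 3-week hearts lay below the chow hearts without passing (log2 -0.65, adjusted p = 0.202), and Acot1 has a near-identical copy, Acot2, whose transcript its probe may also bind. Angptl4, which inhibits lipoprotein lipase, differed by -0.11, and Cpt1a and Cpt1b, the liver and muscle forms of the enzyme that admits fatty acids to mitochondria, by 0.10 and 0.12. None of these passed. Ucp3 and Ppara itself differed by -0.51 and -0.11 and did not pass. The single rise was Creb3l3, a membrane-bound transcription factor of liver and gut that controls lipid genes, at -0.33, -0.37 and -0.79 and 0.22 against -2.04, -2.24 and -2.67 (log2 2.00 ± 0.20, adjusted p = 1.72e-06). Its 8-week hearts, at -2.09, -2.28 and -2.46, lay with the chow hearts. The falls were Plin5 (-1.10), Pex11a (-0.70), Hadha (-0.64), Ech1 (-0.64) and Ucp2 (-0.22). The call of Hadha was lost without any 1 of chow replicates 2 and 3 and 3-week replicate 4 (adjusted p 0.0579 to 0.125). That of Ech1 was lost without any 1 of chow replicate 3 and 3-week replicates 1, 2 and 4 (adjusted p 0.0553 to 0.228). Ucp2 lost its call without any 1 of chow replicates 1, 2 and 3 and 3-week replicates 1, 2 and 3 (adjusted p 0.08 to 0.159). A second probe of Hadha rose by 0.36, and passed in the same limma fit run over probes (adjusted p = 0.0014). Set directly against the 8-week hearts, 13 targets were lower at 3 weeks, against 13.5% of all genes, and 1 was higher. The direct repeat that PPAR alpha binds, as 2 copies of AGGTCA set 1 base apart, without mismatch, was in 0 of 24 promoters of tested targets and in 12 of 27025 promoters (0.0444%), so this window says nothing about them.

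**Figure D2:**
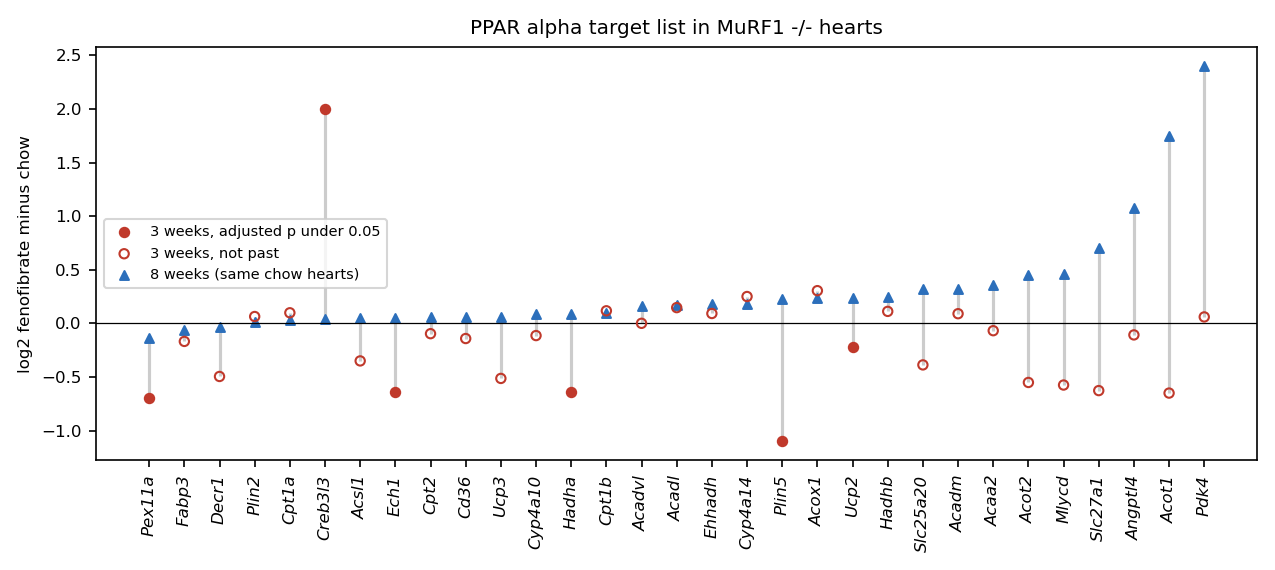
Log2 difference from MuRF1 -/- chow hearts (vertical axis) of PPAR alpha targets after 3 weeks, filled where adjusted p was under 0.05, and after 8 weeks, with both sets measured against the same 3 chow hearts. Pdk4 lies at 0.06 at 3 weeks and 2.40 at 8 weeks, and Creb3l3 at 2.00 and 0.04.

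Among 22 genes that coat, build and break down lipid droplets, 9 fell and 1 rose, where 12.1% of all genes fell and 14.4% rose. Their median difference was -0.17. Pnpla2, the lipase ATGL that starts triglyceride breakdown, was at -0.05, 0.02 and 0.28 in replicates 1 to 3 and 0.29 in replicate 4, against 1.14, 0.87 and 1.18 on chow (log2 -0.93 ± 0.12, adjusted p = 4.43e-05). A second Pnpla2 probe moved by -1.52. Plin5, the droplet coat protein of oxidative muscle that recruits ATGL, was at 1.49, 1.42 and 1.33 and 1.12 against 2.40, 2.35 and 2.58 (log2 -1.10 ± 0.20, adjusted p = 0.000526). Neither gene's 3-week hearts overlapped the chow hearts, and their 8-week hearts were at 1.16, 1.38 and 1.25 and 2.36, 3.04 and 2.59, near chow. Abhd5 (-0.56), the coactivator of ATGL, and G0s2 (-0.64), its inhibitor, fell together. So did the synthesis genes Agpat2 (-0.79), Lpin1 (-0.95), Dgat1 (-0.48) and Dgat2 (-0.40), and Fitm1 (-1.14), which helps droplets form in muscle. Lpin2 rose by 0.48 and missed the threshold without replicate 4 (adjusted p = 0.0996). Without replicate 4, 10 fell and 0 rose. The other perilipins, Plin1 to Plin4, differed by 0.06 to 0.23 and did not pass. In MuRF1 +/+ hearts 7 of the 22 fell at 3 weeks (12.2% of all genes), and none fell after 8 weeks in MuRF1 -/- (1.15% of all genes).

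The next counts stand beside 14.4% rises and 12.1% falls over all genes, and several lie near those shares. Of 24 genes of mitochondrial fatty acid oxidation, Acads and Hadha fell and none rose (median -0.09), although the second probe of Hadha rose. Acads, the short-chain acyl-CoA dehydrogenase, was at 0.52, 0.70 and 0.77 and -0.03 against 1.70, 1.79 and 2.11, with no overlap and replicate 4 lowest (log2 -1.38 ± 0.28, adjusted p = 0.00149). Of 24 peroxisomal genes 0 rose and 4 fell (median -0.13): Pex11a (-0.70), Ech1 (-0.64), Hsd17b4 (-0.48) and Acaa1b (-0.30). For fatty acid uptake and activation, 2 of 16 rose and 2 fell (median -0.12). Slc27a4, a fatty acid transport protein, was at -0.53, -0.42 and -0.58 and -0.27 against 0.22, 0.27 and 0.31 (log2 -0.71 ± 0.08, adjusted p = 4.28e-06). Gpihbp1, which holds lipoprotein lipase on capillaries, rose by 0.65, a call lost when any of 6 hearts was left out (adjusted p 0.0837 to 0.128); they were 3-week replicates 1, 3 and 4 and each chow heart. For acyl-CoA thioesterases and uncoupling proteins, 1 of 11 rose and 2 fell (median -0.22). The rise was Acot6, which was not above background in any chow heart and was at least 2.3-fold higher at 3 weeks. Among receptors and coregulators, 0 of 17 rose and 4 fell: Esrra (-0.75), the oestrogen-related receptor that drives mitochondrial genes, Rxrb (-0.61) and Rxrg (-0.40), partners of PPAR alpha, and Nr1h3 (-0.46), the sterol sensor LXR alpha. Esrra was at 1.15, 1.30 and 1.40 and 1.01 against 1.94, 1.93 and 2.02, without overlap, but its other probe moved by 0.35. Single hearts decided the calls of Rxrg (without chow replicate 3, adjusted p 0.0608) and Nr1h3 (without chow replicate 3, adjusted p 0.0959).

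Gys1 and Hk1 were among the few glycogen and glucose genes to pass. Gys1, glycogen synthase of muscle, was at -0.31, -0.07 and -0.32 in replicates 1 to 3 and -0.27 in replicate 4, against 0.55, 1.01 and 0.84 on chow and 0.88, 0.84 and 0.82 at 8 weeks (log2 -1.04 ± 0.15, adjusted p = 6.79e-05). The 4 three-week hearts lay below every other MuRF1 -/- heart. Gbe1, the branching enzyme, fell by 0.51 and Pygm, the muscle phosphorylase that breaks glycogen down, by 0.71, while Ugp2, which makes the glucose donor, rose by 0.31. Leaving out 1 heart ended the calls of Gbe1 (without chow replicate 2, adjusted p 0.0625), Pygm (without chow replicate 2 or 3 or 3-week replicate 1, 3 or 4, adjusted p 0.0527 to 0.152) and Ugp2 (without chow replicate 2 or 3 or 3-week replicate 1 or 2, adjusted p 0.0603 to 0.206). Of the glycogen list 1 of 17 rose and 3 fell (median -0.14), and among genes of glucose uptake and glycolysis 1 of 22 rose and 4 fell (median -0.09), shares of falls not far from the 12.1% of all genes. Hk1, a hexokinase that starts glycolysis, was at 0.60, 0.78 and 0.61 and 0.72 against 1.55, 1.497 and 1.41 (log2 -0.81 ± 0.09, adjusted p = 7.42e-06), and its 3 other probes moved by -1.28 to -0.69. Pfkfb2, the heart isoform that makes the glycolytic activator fructose 2,6-bisphosphate, rose by 0.76 (adjusted p = 1.45e-05), with 1.24, 1.13 and 1.33 and 1.43 against 0.40, 0.59 and 0.57. The groups of Hk1 and Pfkfb2 did not overlap. Pkm (-0.61), Pfkl (-0.47) and Eno1 (-0.23) fell. Pdk2, a widely expressed pyruvate dehydrogenase kinase, fell by 1.05 (adjusted p = 0.000539), with 0.60, 0.71 and 0.71 and 0.32 against 1.34, 1.66 and 1.89. Ogdh, of the tricarboxylic acid cycle, was the single one of 18 cycle genes to pass (log2 -0.84 ± 0.21, adjusted p = 0.00724). The ketone-using enzyme Oxct1 rose by 0.86, a call lost without 3-week replicate 4 or chow replicate 2 or 3 (adjusted p 0.0571 to 0.0821).

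Nmrk2 and Cyp1a1 were lower at both times. Nmrk2, the muscle kinase that turns nicotinamide riboside into an NAD precursor, was at 1.99, 2.03 and 1.69 in replicates 1 to 3 and 0.97 in replicate 4, against 4.00, 2.92 and 4.42 on chow (log2 -2.11 ± 0.33, adjusted p = 0.000201). It was lower still in 8-week hearts, at 1.22, 0.49 and 1.13 (8 weeks minus chow -2.83, adjusted p = 0.000266), a comparison that shares the chow hearts. Of 13 NAD genes it was the single fall (4 fell without replicate 4), and Cd38, an enzyme that consumes NAD, the single rise (0.48, adjusted p = 0.00365). Over all genes 12.1% fell and 14.4% rose. Nampt, the rate-limiting salvage enzyme, differed by -0.04 and did not pass. Cyp1a1, the cytochrome P450 switched on by the aryl hydrocarbon receptor, was at 0.22, -0.12 and 0.34 and 0.24 against 1.57, 2.37 and 2.33 on chow (log2 -1.92 ± 0.24, adjusted p = 1.64e-05) and 1.00, 0.21 and 0.06 at 8 weeks. Each chow heart was above each fed heart. None of the other 7 genes tested from that receptor's battery passed. The receptor's core site GCGTG, printed above for Cyp1a1, was in 6 of the 7 promoters at hand for tested battery genes, Cyp1a1 included. Among all promoters it was in 8772 of 27025 (32.5%).

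Contractile genes went both ways. For sarcomere and Z-disc genes, 4 of 30 rose and 5 fell (median 0.04). This count and that of cardiomyocyte markers below stand beside 14.4% rises and 12.1% falls over all genes. Ttn, the giant spring protein titin, was at 1.61, 1.27 and 1.43 and 1.78 against 0.74, -0.43 and -0.44 (log2 1.57 ± 0.30, adjusted p = 0.000896). Its 8 other measured probes moved by 0.48 to 1.75, so the rise was not that of 1 probe, and chow replicate 1 was above the other chow hearts. Myom2, a titin-binding M-band protein, rose by 0.95 (adjusted p = 0.000298), with 2.37, 2.60 and 2.55 and 2.78 against 1.36, 1.86 and 1.67. Des, the intermediate filament desmin, fell by 1.77 (adjusted p = 0.00335), with 0.11, 0.46 and 0.17 and -0.99 against 1.74, 1.70 and 1.67. Replicate 4 was lowest for Des. Among others, Actc1 (-0.66), Ldb3 (-0.66) and Actn2 (-0.51) fell and Xirp2 (0.52) and Flnc (0.43) rose. The calls of Actc1 (without chow replicate 2, adjusted p 0.0824) and Xirp2 (without chow replicate 2 or 3, adjusted p 0.0518 to 0.0855) did not survive the loss of a single heart, and the fit without replicate 4 counted 5 rises and 2 falls. Ckm, muscle creatine kinase, was at -0.70, -0.65 and -0.31 and -0.80 against 0.89, 0.93 and 0.96 (log2 -1.54 ± 0.25, adjusted p = 0.000238). Nkx2-5, the cardiac homeobox factor, was at 2.31, 2.49 and 2.82 and 2.34 against 3.43, 3.30 and 3.94 (log2 -1.07 ± 0.21, adjusted p = 0.00145). Neither overlapped chow. Of 10 cardiomyocyte markers, all of which were bright enough to test, Nkx2-5 and Actc1 fell and none rose (median -0.12).

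Of 26 calcium handling and conduction genes 1 rose and 4 fell (median -0.12), a share of falls near the 12.1% of all genes, and without replicate 4 the falls were 2. Jph2, which ties the cell membrane to the calcium store, was at 1.54, 1.74 and 1.75 in replicates 1 to 3, 0.56 in replicate 4 and 2.49, 2.43 and 2.52 on chow (log2 -1.08 ± 0.26, adjusted p = 0.00558), and a second probe moved by -1.24. The potassium channel genes Kcnd2 (-1.15), Kcnip2 (-0.92) and Kcnq1 (-0.63) fell, the first 2 being subunits of 1 outward current. Single hearts decided the calls of Kcnd2 (without chow replicate 2 or 3 or 3-week replicate 1, adjusted p 0.0543 to 0.115) and Kcnip2 (without chow replicate 2 or 3 or 3-week replicate 1 or 4, adjusted p 0.0574 to 0.114). Cacnb2, a calcium channel subunit, was above background in 0 chow hearts and at least 2.05-fold higher at 3 weeks, although its other probes moved by 0.06 to 0.09. Of 17 adrenergic and cAMP genes 0 rose and 2 fell, again near the share of all genes (median -0.05). Adcy5, a main cardiac adenylyl cyclase, was at 0.82, 0.82 and 0.94 and 0.15 against 1.78, 2.29 and 2.61 (log2 -1.55 ± 0.27, adjusted p = 0.000482), and its other probe moved by -1.24. Grk2, the kinase that silences beta receptors, was at -0.25, -0.14 and 0.11 and -0.10 against 0.95, 0.83 and 1.13 (log2 -1.06 ± 0.13, adjusted p = 1.64e-05). No 3-week heart of either gene overlapped chow, and replicate 4 was the lowest heart for Adcy5.

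Among the ubiquitin ligases, the MuRF1 relative MuRF2 stood out. Trim55 was at 0.37, 0.25 and 0.16 in replicates 1 to 3 and 0.51 in replicate 4, against -0.97, -1.15 and -1.14 on chow and -1.20, -1.35 and -1.40 after 8 weeks (log2 1.41 ± 0.21, adjusted p = 0.000112). It was 2.66-fold higher, and the 3-week hearts lay above every chow and 8-week heart. It rose in MuRF1 +/+ hearts as well (1.17, adjusted p = 0.000659), and the difference of the responses did not pass. Trim54, which encodes MuRF3, differed by -0.32 (adjusted p = 0.349). Fbxo32, the atrogin-1 ligase that often moves with MuRF1 in wasting muscle, rose by 0.64 but not past the threshold without replicate 4 (adjusted p = 0.0563), and Wwp1 rose by 0.30. The 5 that fell were Fbxl22, a cardiac F-box protein of the Z-disc, Fbxo31 (-0.64), Stub1 (-0.58), the chaperone-linked ligase CHIP, the mitochondrial ligase gene Mul1 (-0.53) and Fbxo21 (-0.33). Fbxl22 was at 1.43, 1.54 and 1.83 and 0.60 against 2.21, 2.45 and 2.74 (log2 -1.11 ± 0.22, adjusted p = 0.00141), with replicate 4 lowest and a second probe at -0.15. In all 3 of 19 rose and 5 fell (median -0.13). Here and in the proteasome and autophagy lists below, the share of rises was near the 14.4% of all genes, and 12.1% of all genes fell. Of 27 proteasome subunits 3 rose and 1 fell, and of 23 autophagy genes 3 rose and 5 fell, among them Map1lc3a (-1.03), Map1lc3b (-0.66) and Gabarap (-0.55), which encode proteins of the autophagosome membrane.

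Atrial natriuretic peptide mRNA rose, while most genes of the fetal programme did not pass. Nppa was at 3.38, 3.14 and 3.04 in replicates 1 to 3 and 3.76 in replicate 4, against 2.41, 2.64 and 1.88 on chow and 2.90, 2.85 and 2.36 at 8 weeks (log2 1.02 ± 0.21, adjusted p = 0.00179). Its second probe moved by 1.13. In MuRF1 +/+ hearts Nppa differed by 0.06, and the difference between genotypes did not pass (log2 0.96 ± 0.30, adjusted p = 0.999). Nppb, the ventricular peptide, was at 4.77, 4.05 and 3.95 and 3.65 against 4.33, 3.67 and 3.57, and the hearts overlapped (log2 0.25, adjusted p = 0.704). Myh7, the slow myosin of the fetal and stressed ventricle, was at 0.13, 0.35 and -0.86 and 0.57 against 1.42, 0.25 and 1.20 (log2 -0.91, adjusted p = 0.109). Of 22 genes of the fetal and hypertrophy programme, Nppa and Xirp2 rose and none fell (median -0.02), where 14.4% of all genes rose and 12.1% fell. Atrial markers moved in replicate 4. Over 10 markers its median difference from chow was 0.53, against -0.06 in the fit without it, and the atrial light chain gene Myl7 was at -2.17, -2.05 and -0.58 and 0.94 against -1.86, -1.77 and -1.84 on chow. Nppa is itself an atrial marker.

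Of 20 endothelial markers 5 rose and 1 fell (median 0.41), beside 14.4% rises and 12.1% falls over all genes. Egfl7, a vessel-secreted matrix protein, was at 1.14, 0.63 and 1.17 and 0.89 against 0.02, -0.03 and 0.24 (log2 0.88 ± 0.22, adjusted p = 0.00677). Kdr (0.73), Icam2 (0.62), Erg (0.55) and Tek (0.54) rose, and Eng fell by 0.60. Col3a1, a fibrillar collagen of fibroblasts, was at -3.74, -4.03 and -4.11 and -3.79 against -4.54, -4.97 and -5.52 (log2 1.09 ± 0.39, adjusted p = 0.0452), and a second probe moved by -0.02. The groups did not overlap for Egfl7 or Col3a1, but leaving out 1 heart ended the calls of Kdr (without chow replicate 2 or 3 or 3-week replicate 1 or 4, adjusted p 0.0617 to 0.0988) and Eng (without chow replicate 3, adjusted p 0.0797) and of Col3a1 (without any 1 of 3-week replicates 1, 2 and 3 and chow replicates 2 and 3, adjusted p 0.0618 to 0.194). Of 27 matrix genes 4 rose, a share like that of all genes, and 0 fell (median 0.17). Besides Col3a1 they were Col4a1 (0.91), Timp3 (0.88) and Fbn1 (0.61). Other probes of Col4a1 and Fbn1 moved by -0.01 and 0.06, and the call of Timp3 was lost without chow replicate 3 (adjusted p = 0.0787). In addition, of 14 fibroblast markers 3 rose and 0 fell (median 0.35): Col3a1, Ddr2 (0.42) and Pdgfra (0.41). Leaving out chow replicate 2 or 3 ended the calls of Ddr2 (adjusted p 0.0648 to 0.0951) and Pdgfra (adjusted p 0.0552 to 0.107). The other probe of Ddr2 moved by -0.15. For smooth muscle and pericytes 4 of 14 rose and 3 fell (median -0.09), with Des among the falls, and without replicate 4 the counts were 1 and 2. Markers of other tissues were tested as well: of 12 skeletal muscle markers 0 rose and Ckm and Atp2a1 fell, the latter by 0.92 at the tested probe and with its other probe at 0.14. The call of Atp2a1 was lost when any 1 of 5 hearts was left out, 3-week replicates 1, 3 and 4 and chow replicates 1 and 2 (adjusted p 0.0505 to 0.195). Of the rest, 0 of 13 adipocyte, 5 mesothelial, 5 erythrocyte and 6 neuronal or glial markers passed.

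The remaining lists are to be read beside the 14.4% of all genes that rose and the 12.1% that fell, and several of their counts lie near those shares. Of 32 ribosomal protein genes 5 rose and 0 fell, with a median of 0.20. Rpl14 was at 0.05, 0.04 and 0.05 and 0.07 against -0.37, -0.55 and -0.41, without overlap (log2 0.50 ± 0.09, adjusted p = 0.000811). Respiratory chain and ATP synthase genes had 4 rises and 1 fall among 30 (median 0.13), led by Ndufa4 at 0.70. Of the small heat shock proteins, Hspb6 was at 1.47, 1.70 and 1.43 and 0.71 against 2.09, 2.55 and 2.62 (log2 -1.10 ± 0.26, adjusted p = 0.00483), Hspb7 fell by 0.99 and the co-chaperone gene Stip1 by 0.62, and 0 of 18 chaperone genes rose. In the circadian clock 0 of 16 rose and Nfil3 (-0.76), Nr1d1 (-0.73) and Cry2 (-0.41) fell, and leaving out 1 heart ended the calls of Nr1d1 (without chow replicate 3 or 3-week replicate 4, adjusted p 0.0614 to 0.15) and Cry2 (without chow replicate 2 or 3 or 3-week replicate 1 or 4, adjusted p 0.0537 to 0.116). The unfolded protein response had 1 rise, Hsp90b1 (0.73), and 4 falls among 23. For metallothionein, heme and oxidative stress genes 1 of 22 rose and 3 fell (median -0.04), with Alas1, which makes the first heme precursor, at -0.55. In the remaining lists, branched-chain amino acid breakdown had 2 rises and 1 fall among 17, with its kinase Bckdk at -0.79, sterol and fatty acid synthesis 2 and 3 among 22, pyruvate dehydrogenase control 1 and 2 among 13, ketone body metabolism 1 and 0 among 7, the cell cycle 2 and 0 among 19 and immediate early genes 1 and 1 among 19.

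**Figure D3:**
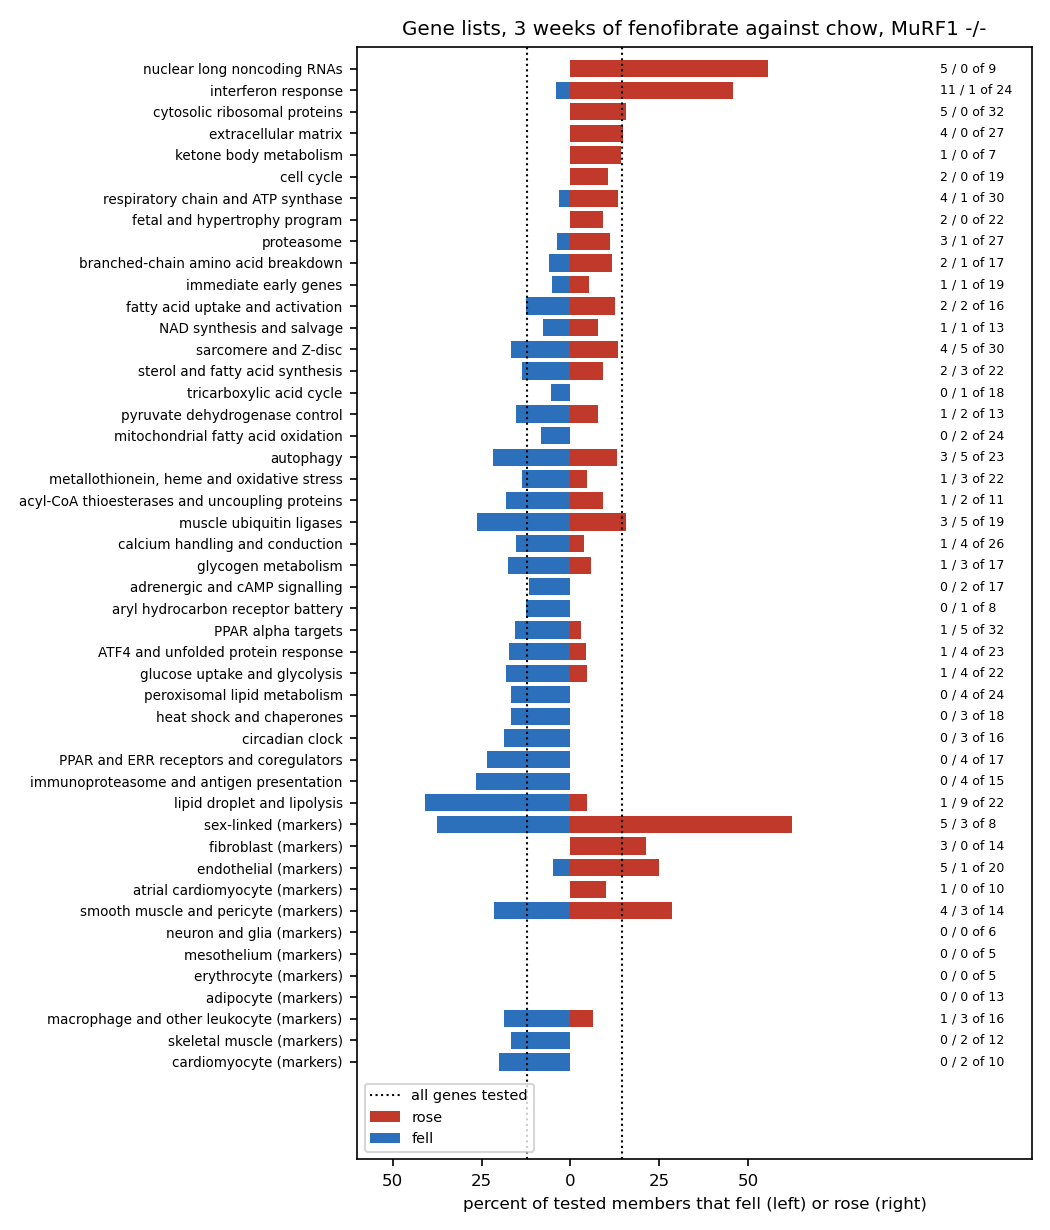
Percent of tested members of each gene list that rose (right) or fell (left) in MuRF1 -/- hearts after 3 weeks, with dotted lines at the shares over all 14566 genes (14.4% and 12.1%). Nuclear long noncoding RNAs and interferon genes reach farthest to the right apart from sex-linked genes, and lipid droplet genes are at 9 of 22 on the left.

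Several of the largest differences rested on 1 probe among several for a gene. Pinx1, a telomerase inhibitor, was at 2.96, 3.49 and 4.09 in replicates 1 to 3 and 3.93 in replicate 4, against -0.31, -0.18 and 0.09 on chow and 0.06, 0.03 and -0.04 after 8 weeks (log2 3.75 ± 0.39, adjusted p = 2.75e-06). Its other measured probe moved by -0.03. L3mbtl2, a chromatin reader, rose by 3.23 at the tested probe and moved by -0.43 at the other. Gabbr2 (2.96), Mitf (2.89), Ddx42 (2.85) and Ing5 (2.77) rose likewise, and their other probes moved by 0.23, 0.25, 0.28 and 0.02 to 0.07. Srrm3 (3.54), Stra6 (3.26), a retinol transporter, and Pdia5 (2.60) had no second measured probe. In all of these the 4 three-week hearts were above chow, and the MuRF1 +/+ differences were 3.35 for Pinx1 and 2.85 for Stra6. Among falls, Ptprz1, a receptor phosphatase of glia, was at -1.30, -0.81 and 0.10 and -1.56 against 1.65, 1.35 and 1.42 (log2 -2.36 ± 0.63, adjusted p = 0.0111), with other probes at -0.01 to 1.09. Grn, the lysosomal growth factor progranulin, fell by 2.07, with -2.30, -1.73 and -0.67 and -1.90 against 0.53, 0.28 and 0.45 and a second probe at -0.57. Without chow replicate 3 Grn missed the threshold (adjusted p = 0.0557). Dipk1b (-1.65), H1f10, a linker histone (-1.55), and Syt10 (-1.505) had no second probe. Over all genes that passed, 1287 had another measured probe. In 921 of them (71.6%) every other probe had the same sign. In 537 (41.7%) another probe passed in the same direction, and in 58 another passed in the opposite one. Every other probe had the same sign in 65.7% of the 727 that rose and 79.1% of the 560 that fell. Another probe passed in the same direction in 33.6% of those that rose and 52.3% of those that fell. The share with the same sign was 57.0% among genes that did not pass.

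**Figure D4:**
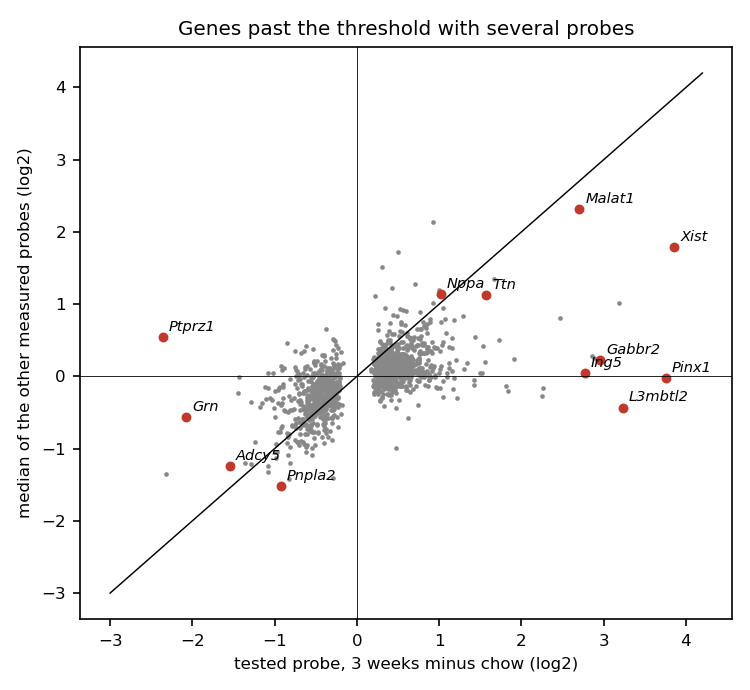
Log2 difference of the tested probe (horizontal axis) against the median of the same gene's other measured probes (vertical axis), 3 weeks minus chow, for 1287 genes past the threshold. Malat1 and Ttn lie high on both axes, whereas Pinx1 and L3mbtl2 lie far right with other probes at -0.03 and -0.43.

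Replicate 4 stood apart from the other 3-week hearts. Its log ratios spread less (SD 0.513, against 0.580 to 0.658 in replicates 1 to 3). Across genes they had a slope of 0.788 on the mean of replicates 1 to 3. What part of the gene differences below goes with that slope was not tested. It was highest above its group in Myl7 (2.54 above the mean of replicates 1 to 3), in the RNA of the RNase MRP complex, Rmrp (1.69), and in Pck1, Rbp4, Tubb2b, Rpl38, Afp, Sln, Fabp1 and Apoh. Pck1, of glucose synthesis, was at -5.08, -4.96 and -5.04 in replicates 1 to 3, -3.34 in replicate 4 and -4.28, -4.51 and -4.42 on chow. Afp, alpha-fetoprotein of the fetal liver, was at -7.10, -6.88 and -6.90 and -5.52 against -6.92, -6.65 and -6.94, and Sln, sarcolipin of the atria, at -4.73, -4.66 and -4.37 and -3.16 against -4.48, -4.52 and -4.54. Pck1, Afp and Sln were far below the newborn reference in every heart, replicate 4 included. It was lowest below its group in Pln, the brake on the calcium pump, at 3.55 against 5.08, 5.73 and 5.30 in the others and 4.55, 5.15 and 5.40 on chow. Sdha, of the respiratory chain, was at -0.37 against 1.03, 1.98 and 0.85 and 0.92, 1.59 and 1.03 on chow, and Hspb8, Bsg, Egln1 and Pygb were low in it as well. Prdm2 and Hormad1 were lower than in the other 3-week hearts, but above chow: Prdm2 was at 0.98 against 2.02, 2.89 and 3.34 and, on chow, -0.02, 0.21 and -0.02. Neither gene was well above background in any chow heart. Over the 4 three-week hearts they were at least 4.17-fold and 3.11-fold higher. By list, replicate 4 differed from chow by a median of -0.48 over tricarboxylic acid cycle genes and 0.50 over matrix genes, against 0.03 and 0.12 in the fit without it. Without it, 1 antigen presentation gene fell where 4 had with it, 1 circadian gene where 3 had, 1 sterol and fatty acid synthesis gene where 3 had and 3 autophagy genes where 5 had, and 0 genes of fatty acid uptake rose where 2 had. As 1 array it allows no test.

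**Figure D5:**
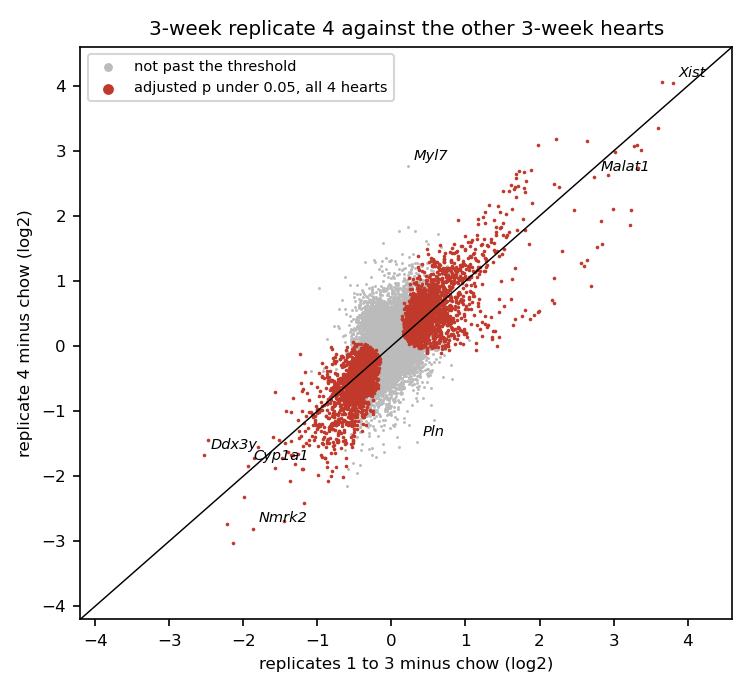
Log2 difference from the chow mean in 3-week replicates 1 to 3 (mean, horizontal axis) against replicate 4 (vertical axis), 1 point per gene, with genes past the threshold in the 4-heart comparison in red and the line of equality. Both axes use the same chow mean. Myl7 lies above the line and Pln below it.

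The response was then set against that of MuRF1 +/+ hearts, which shares no heart with it. In MuRF1 +/+, 3569 genes passed at 3 weeks (24.5%). Across 14566 genes the differences from chow correlated at r = 0.904 (Spearman's rho 0.848), where genes are not independent replicates and both comparisons set hearts that had Y-linked transcripts above background against hearts that mostly had not. Both genotypes had 1396 genes that rose and 1256 that fell, and 0 that went opposite ways, which were 68.8% of the calls in MuRF1 -/- and 74.3% of those in MuRF1 +/+. In the test of the difference of the responses, 0 genes passed. The smallest adjusted p was 0.257 and 330 genes (2.27%) had an unadjusted p under 0.05. Pnpla2, Plin5, Gys1 and Nmrk2 differed by -0.69, -0.69, -0.98 and -2.24 in MuRF1 +/+, beside -0.93, -1.10, -1.04 and -2.11 in MuRF1 -/-. Neat1, Ttn and Trim55 were 2.44, 1.98 and 1.17 beside 3.01, 1.57 and 1.41. A missing call does not show equal responses: for Timp3, an inhibitor of matrix proteases, the differences were 0.04 and 0.88, and for Kcnd2 -0.33 and -1.15.

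Within MuRF1 -/-, 3-week and 8-week hearts differed in 4592 genes (31.5%, 2626 higher and 1966 lower at 3 weeks), more than either differed from chow. The 8-week hearts differed from chow in 325 (2.23%). After 3 weeks Pdk4 was 2.34 lower than after 8 (adjusted p = 5.42e-05), Acot1 2.40 (adjusted p = 9.58e-05), Angptl4 1.18 and Myh7 1.93. Nppb, at 2.87, 2.40 and 3.45 after 8 weeks, was 1.20 higher at 3 weeks (adjusted p = 0.035). The 6 largest differences past the threshold were those of Pinx1 (3.60), Xist (3.44), Srrm3 (3.35), Stra6 (3.19), L3mbtl2 (3.06) and Gabbr2 (3.00), and each of these also rose against chow. In the 8-week group Ddx3y and Eif2s3y were above background in 2 of 3 hearts, so sex-linked transcripts moved with time on the drug too, and their part in these differences was not tested.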

How the data were processed

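Heart RNA of 20 mice was measured on 2-colour Agilent arrays of design 014868. Spot intensity, deposited without normalization, was written by Feature Extraction 9.5.3.1 per the file headers, as were the deposited log10 ratio of Cy5 over Cy3 and the flags of 0 or 1 for background and outliers, which are other columns of the deposited files. Log2 values of these arrays are also in the deposited series matrix, made by steps that the sources used here do not state. Compared with Agilent's deposited log ratios on the log2 scale, its columns had slopes of 0.869 to 0.973 and medians of -0.0060 to 0.0091, so they run as heart over reference. The lowest slope was that of chow replicate 2, whose column spread less (SD 0.417) than the others (0.661 to 0.827), and its scale stays unknown. The labels' protocol speaks of labelling with Cy3, while the channel labels, followed here, name Cy5 for heart, and no dye swap is labelled.

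Intensities were corrected with normexp (offset 50), leaving out spots whose local background exceeded their signal by more than 50, and normalized by loess within arrays in limma 3.58.1 (run in R 4.3.3, with 1.17.8 as the data.table version). Outlier spots were set as missing (110 to 203 on each of the 7 arrays), control spots were left out, and spots of a probe were averaged, giving 41174 probes from 43379 spots. Names came from a RefSeq table of GRCm38.p6, by accession for 22951 probes, as a current symbol for 6659 and through a synonym for 3109, while 8455 kept the file's name. A gene's brightest probe was used, and the test covered 14566 genes, those whose heart signal stood well above background on 3 or more arrays. Both choices used all 20 arrays, the 3-week ones included. A probe bright only at 3 weeks was thus favoured, or could enter through that group alone. With a filter that asked for signal above background in every 3-week or every chow heart, 3530 genes passed, 1805 higher and 1725 lower. All 20 arrays entered 1 fit of 6 group means (eBayes, trend = TRUE), with p-values adjusted by Benjamini-Hochberg over all genes and a threshold of 0.05. The p-values measure the spread between these hearts, and 3 or 4 arrays a group limit the precision.

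The comparison, its members and the gene lists were chosen with earlier results of these data known. Named were the 12 largest rises and 12 largest falls among genes whose groups did not overlap, up to 4 passing members of each list with the smallest adjusted p, 17 genes fixed by name, and for 3 against 8 weeks the 6 largest differences. Other members are named beside the counts that hold them. Values of some members are not reported here, though counts include them. Data were also simulated with 200 changed genes of 14316. The procedure recovered 58% of differences of 0.5, 88% of 1, 96% of 1.5 and 100% of 2, with 10 false calls. The noise was drawn independently for each gene and array, with no array that stood apart. Far more genes passed in the real hearts (26.5%), so these rates need not hold there. Slides were told apart by their scan, since 1 slide's arrays name another in their headers. Genes with near-identical copies are uncertain. Alternatives changed the background correction, normalization, filter, probe rule, blocks and arrays used.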

Additional observations from a re-analysis of the deposited data

Results flagged for a closer look

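Of 160 named genes, 3 had a 3-week heart far from the other 3, with a gap over the group's range above Dixon's critical value for 4 samples. Chance alone does so in about 1 in 20 groups. All 3 were in replicate 4. Dbt, a subunit of the branched-chain keto acid dehydrogenase, was at 0.766 there and at 1.23 to 1.32 in the others. Cpt1b was at 2.51 in replicate 4 and at 2.08 to 2.13 in the others. Adcy5 was at 0.149 there and at 0.818 to 0.940 in the others.

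Levels after 3 and 8 weeks of fenofibrate differed in 4592 genes of MuRF1 -/- hearts by the test of that difference. Among the named genes, the difference of 3 weeks minus 8 weeks on the log2 scale was 3.60 for Pinx1, 3.44 for Xist, 3.35 for Srrm3, 3.19 for Stra6, 3.06 for L3mbtl2, 3.00 for Gabbr2, 1.20 for Nppb and 0.623 for Nppa. It was -2.40 for Acot1, -2.34 for Pdk4, -1.93 for Myh7 and -1.18 for Angptl4. For the Y-linked Eif2s3y and Ddx3y it was -1.71 and -1.51. No difference between the genotypes' 3-week responses passed.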

How the results depend on the processing

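For 3 weeks of fenofibrate against chow in MuRF1 -/-, 3857 genes passed, and the count was 2369 with normexp fitted on all spots and 2237 with the values of the series matrix, in which 2235 and 1974 of the same genes remained. Leaving out 1 heart gave 2348 (without chow replicate 3) to 3955 (without 3-week replicate 4). With slide as a block 3435 passed, and with both groups alone in the fit 2724. With the heart channel alone 3718 passed, of which 3132 were among the 3857. Rises made up 50.4% to 60.3% of the calls under all alternatives run. For the difference of the 3-week responses between genotypes, 0 genes passed. The count was 1 with Agilent's deposited log ratio, 7 without the 2 arrays that stand apart, 17 with array weights, 1 with normexp fitted on all spots and without replicate 4, and 0 to 1 when 1 heart was left out. For 3 against 8 weeks of fenofibrate in MuRF1 -/-, 4592 passed, against 7002 with array weights, 2947 with slide as a block and without replicate 4, and 3217 to 4805 when 1 heart was left out. Settings that leave out replicate 4 together with another change were chosen after seeing the data. Of 145 named genes past the threshold, 61 passed under all 25 alternatives, and none of the 160 changed sign past it. The causes were not tested.

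Within replicates 1, 2 and 3, the 3-week and chow hearts shared a slide. Their deviations from the group means correlated at -0.075, 0.330 and 0.329 over all genes. Hearts of unlike number were not compared in this way, so these values do not settle whether replicate numbers pair hearts. With the replicate number as a block, 3481 genes passed for 3 weeks against chow, 0 for the difference of responses and 4200 for 3 against 8 weeks. Genes near background had the least precise ratios, and bounds are given where no heart of a group was above it.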
